A study of Caenorhabditis elegans with 4 samples.

Results

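The regions described here are the 293 places on chromosomes II and IV of Caenorhabditis elegans at which DNA precipitated with the nuclear receptor NHR-6 exceeded input DNA, 155 on II and 138 on IV, out of 1209 in the whole list and 1208 on the 6 nuclear chromosomes. Every listed region of the pair was taken. The pair itself was chosen by a measured value, the number of regions for the length of the chromosome, with results of this list already known, so that the low numbers are a description and no finding. Chromatin immunoprecipitation followed by sequencing (ChIP-seq) was done on hermaphrodite larvae of the second stage (L2), grown at 20 °C and fixed with 2% formaldehyde. The groups were ChIP DNA (2 libraries, precipitated with a goat antibody against GFP) and input DNA (2 libraries), with 1 library of each under either replicate number.

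All 4 libraries came from strain OP90, which has the unc-119 allele ed3 on chromosome III and the transgene wgIs90, made of unc-119(+) together with the fusion nhr-6::TY1::EGFP::3xFLAG, so the animals of both groups carried the tagged transgene. The transgene was introduced by bombardment of an unc-119 mutant, and the labels describe its protein as present where and when nhr-6 is normally active. Neither untagged worms nor a control antibody is among the libraries, and signal over input that does not come from NHR-6 cannot be told apart from its binding. The protocol text speaks of embryos where the sample labels give L2. Whole animals were used, so binding in few cells and weak binding in many cannot be told apart. The authors' list holds 1 q-value per region for both replicates together and no read count, fold enrichment or value per library. Depth is therefore unknown, no spread between replicates exists, and no difference below was tested; intervals are 95% and cover counting error only, and they are too narrow where regions cluster.

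NHR-6 is the sole NR4A receptor of the worm, a group whose mammalian members are known as immediate early transcription factors that can bind DNA as monomers without a known natural ligand. In the worm the receptor is known for its part in the formation of the spermatheca. Worm autosomes have a gene-dense central portion flanked by arms that are richer in repeats and recombine more often, while genes on X are spread more evenly. The gene table at hand belongs to a later genome build than the list, so the regions are given by position on build WS180, and the genes at these positions were not analysed here.

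Chromosome II carried 10.3 regions per Mb (8.76 to 12.1) and chromosome IV 7.98 per Mb (6.71 to 9.43), against 13.6 per Mb (12.8 to 14.5) on I, III, V and X together. The length of a chromosome was taken as the end of its rightmost region, 15.03 Mb for II and 17.3 Mb for IV. The density of II was 0.757 times that of the other 4 chromosomes (0.634 to 0.899) and that of IV 0.586 times (0.486 to 0.702). Chromosome X, with 8.87 regions per Mb (7.53 to 10.4), lay between the pair, so a low density was shared by 3 chromosomes. Counted against protein-coding genes rather than length, II and IV came closer to each other, with 45.0 and 42.1 regions per 1000 genes, against 69.1 on the other 4 chromosomes. The pooled value covers 104.3 on I, 77.6 on III, 51.1 on V (45.0 to 57.7) and 56.8 on X (48.2 to 66.5). The intervals of II (38.2 to 52.6) and of IV (35.3 to 49.7) both overlapped those of V and X. The called regions covered 73.2 kb of II and 67.95 kb of IV, which is 0.487% and 0.393% of their lengths, against 0.733% on the other chromosomes.

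The low numbers fell on different outer parts of the 2 chromosomes, while the centre was below the pooled others on both. Each was divided into 3 equal parts by length, and the left part of II held 27 regions, its central part 59 and its right part 69. On IV the order was the opposite, with 58 regions on the left, 46 in the centre and 34 on the right. The right part of II, at 13.8 regions per Mb (10.7 to 17.4), had about the density of the right parts of I, III, V and X, at 12.6 per Mb (11.1 to 14.1), a ratio of 1.10 (0.831 to 1.43). The left part of II held 5.39 per Mb (3.55 to 7.84), against 11.5 per Mb (10.2 to 13.02) in the left parts of the others, a ratio of 0.468 (0.302 to 0.697). The central part of II stood in between, at 0.701 times the others (0.524 to 0.925). The pooled left parts included those of V, at 7.77 per Mb (5.84 to 10.1), and X, at 8.75 (6.52 to 11.5). Both intervals overlapped that of the left of II, while those of I and III did not.

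On IV it was the left part that came near the other chromosomes pooled, at 10.1 regions per Mb (7.64 to 13.01) against their 11.5. The ratio was 0.873 (0.645 to 1.17). The pooled left parts were unlike, with 19.7 per Mb on I, 11.8 on III, 7.77 on V and 8.75 on X, so IV lay above V and X. The centre of IV held 7.98 per Mb against 16.8 in the centres of the others, a ratio of 0.475 (0.342 to 0.647). Those centres held 24.1 per Mb on I, 15.9 on III, 19.1 on V and 8.41 on X. The centre of IV was thus near that of X, and the centre of II, at 11.8, lay above X only. The right part of IV held 5.90 per Mb (4.09 to 8.25) against 12.6, a ratio of 0.470 (0.319 to 0.673). The right parts of the others ran from 9.44 per Mb on X to 17.0 on III. The right part thus held 44.5% of the regions of II (36.5 to 52.7%) and 24.6% of those of IV (17.7 to 32.7%). This share was 26.7% on I (21.7 to 32.1%) and 26.7% on V (21.3 to 32.5%), near that of IV. On X it was 35.5% (28.0 to 43.6%) and on III 38.0% (31.4 to 45.1%), and the interval of III overlapped that of II. Right-to-left ratios were 2.56 on II and 0.586 on IV. Those of I, III, V and X ran from 0.808 on I to 1.44 on III. Both members of the pair lay outside that range, on opposite sides, but no interval was computed for these ratios. Chromosome I leaned to the left as well, with 99 regions on the left and 80 on the right, so the direction was not particular to IV. Chromosome X, the other sparse chromosome, was even along its length, with 51, 49 and 55 regions from left to right.

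**Figure D1:**
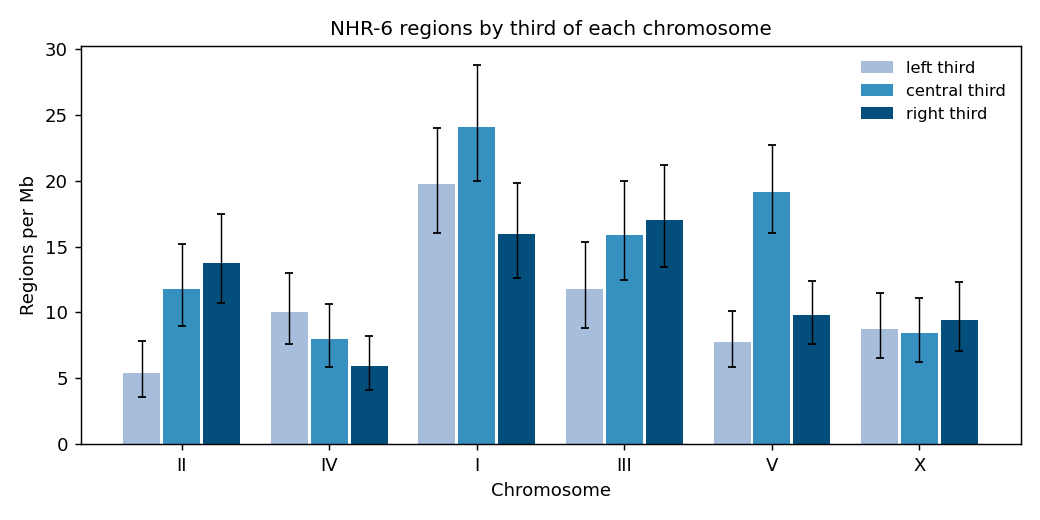
Regions per Mb (vertical axis) in the left, central and right of 3 equal parts of each chromosome (horizontal axis, II and IV first); bars are counts over length and error bars 95% Poisson intervals for counting error. The bars of II step up from 5.39 to 13.8 per Mb from left to right, those of IV step down from 10.1 to 5.90, and those of X stay between 8.41 and 9.44.

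In 10 equal segments, II was emptiest in the second, from 1502604 to 3005207, with 4 regions, and fullest in the last, from 13523435 to 15026038, with 28. The ninth segment of II, just left of the fullest, held 9 and the eighth 26, so the dense right part was not evenly filled. On IV the fullest segment was the first, from 1 to 1728562, with 21 regions, and the emptiest was the eighth, from 12099941 to 13828503, with 6. The most crowded 500 kb bin of II, from 14000001 to 14500000, held 14 regions, of which the strongest began at 14349421 (q = 9.39e-07). The most crowded bin of IV, from 10000001 to 10500000, held 11, and the strongest of these began at 10128705. The fullest bins of I, III, V and X held 17, 14, 20 and 9.

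Long empty stretches accounted for part of the left of II. No region lay between 1320815 and 2787014, a stretch of 1466 kb and the longest without a region on any nuclear chromosome, followed by 892 kb on V. A second empty stretch of II, from 285134 to 1089549, was 804 kb long, and the next, from 7344236 to 7790302 near the middle of the chromosome, was 446 kb long. The stretches of over 500 kb together made up 15.1% of the length of II. On IV the 3 longest lay on the right, at 14838525 to 15471415 (633 kb), 15820166 to 16403001 (583 kb) and 12724997 to 13239163 (514 kb), and made up 10.01% of its length. Chromosomes I and III had no stretch of that length, X had 1 and V had 4, so long empty stretches were not limited to II and IV.

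The very strongest regions of the nuclear list lay outside the pair. Strength here means a small q-value, the peak caller's measure of significance and not of occupancy. The strongest region of II ranked 26 of 1208 and the strongest of IV 27. On II, 53 of 155 regions had a q-value under 0.001, 34.2% (26.8 to 42.2%), and on IV 52 of 138, 37.7% (29.6 to 46.3%), against 43.1% (39.8 to 46.3%) on the other chromosomes and 41.3% of the nuclear list. Under 1e-05 lay 15 regions of II and 19 of IV, 11.6% of the pair (8.17 to 15.8%), against 17.5% (15.1 to 20.1%) elsewhere and 16.1% of the nuclear list. Under 1e-10 there were 5 on II and 2 on IV, 2.39% of the pair (0.966 to 4.86%), against 4.15% elsewhere and 3.73% of the nuclear list. These intervals overlap at each threshold, narrowly at 1e-05. The median −log10 q was 2.62 on II (quartiles 2.17 and 3.50) and 2.65 on IV (2.27 and 4.04), against 2.77 on the others (2.30 and 4.06). X was again alike, with a median of 2.498, although its strongest region ranked 2.

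The 4 strongest regions of II came from all 3 of its parts. The first lay from 5660943 to 5662254 in the central part (1312 bp, q = 3.18e-12). The second, from 11874135 to 11874969, lay in the right part (835 bp, q = 1.47e-11). The third began at 5543358, on the same stretch as the first (478 bp, q = 2.15e-11). The fourth, from 254785 to 255603, was near the left end (819 bp, q = 2.47e-11) and, with a short weak region at 285083, bordered the empty stretch of 804 kb.

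The fifth region of II was its widest, from 9060060 to 9062680 (2621 bp, q = 2.83e-11). The sixth began at 5844597 (515 bp, q = 3.76e-10), followed by regions at 8561190 with a width of 388 bp, at 1320495 with 320 bp, at 10248352 with 347 bp and at 8569300 with 313 bp (q = 7.30e-08). Of these 10 regions 6 lay in the central part, and those at 5543358, 5660943 and 5844597 fell within the fourth segment. The region at 1320495 (q = 1.92e-09) was the last before the empty stretch of 1466 kb, while the region on the other side of that stretch, at 2787015, was weak (q = 0.00386, rank 817). Only 2 of the 10 lay in the right part, which held more regions than either other part.

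On IV the strongest region lay from 4749934 to 4750472 in the left part (539 bp, q = 4.59e-12), with a short region of 6 bp at 4745000 as its nearest neighbour. The next was the widest of either chromosome and lay just before the last region of IV, from 17278276 to 17281540 (3265 bp, q = 7.001e-12). It stood between the fifth, from 17249727 to 17250218 (492 bp, q = 8.17e-09), and the last region of the chromosome, from 17285270 to 17285629 (360 bp, q = 3.44e-05). These 3 consecutive regions, all with q under 1e-04, were the rightmost of the sparse part of IV. Their distance from the true end of the chromosome is unknown, since its length was taken from the last region. The last 2 regions of II, at 15010371 and 15025652, were weaker, with q-values of 0.000215 and 0.000216.

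The remaining strong regions of IV began at 654780 (314 bp, q = 2.58e-10), at 4390514 (331 bp, q = 5.02e-10) and at 14032623 (2261 bp, q = 1.80e-08). They were followed by those at 2388899 with a width of 904 bp, at 8431656 with 1709 bp, at 16656242 with 754 bp and at 12391137 with 319 bp (q = 5.54e-07). By part, 4 of the 10 lay on the left, 1 in the centre and 5 on the right. The right part of IV thus held 34 of 138 regions and 5 of the 10 strongest. Of all regions of IV with q under 0.001 it held 15 of 52, 28.8% (17.1 to 43.1%), near its 24.6% of all regions. The strongest 10 of IV reached down to rank 115 and those of II to rank 95.

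**Figure D2:**
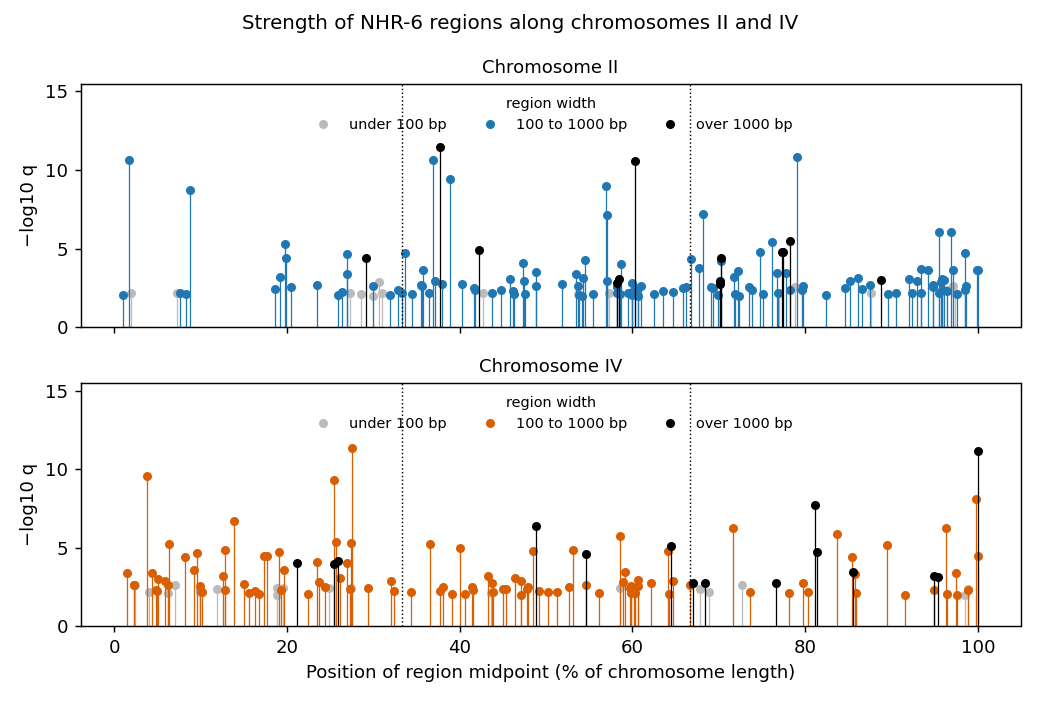
Each region of chromosomes II (top) and IV (bottom) as a stem at its midpoint (horizontal axis, % of chromosome length) with its −log10 q (vertical axis); grey, coloured and black mark widths under 100 bp, 100 to 1000 bp and over 1000 bp, and dotted lines divide the chromosome into 3 equal parts. The left of II holds 27 stems with long gaps between them, and the right of IV holds few stems but 9 of its 15 black ones.

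Fewer of the central regions of II and IV had small q-values than of those of I, III and V. In the central parts, 17 of 59 regions of II and 12 of 46 of IV had q under 0.001, together 27.6% (19.3 to 37.2%), against 43.4% (38.3 to 48.5%) in the centres of I, III, V and X. In the right parts the shares were 40.6% on II (28.9 to 53.1%) and 44.1% on IV (27.2 to 62.1%), against 42.7% on the others. On the left they were 29.6% on II (13.8 to 50.2%) and 43.1% on IV (30.2 to 56.8%), against 43.02%. Chromosome X had a share of 24.5% in its centre (13.3 to 38.9%), so weak central regions were found on all 3 sparse chromosomes, while I, III and V had 42.98, 47.9 and 48.1%.

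The lean of II to the right was seen on both sides of a q-value of 0.001, but not among its 10 strongest regions. Of its regions with q under 0.001, 8 lay on the left and 28 on the right, and of those at or above 0.001, 19 on the left and 41 on the right. On IV the regions with q under 0.001 numbered 25 on the left and 15 on the right, and the weaker ones 33 and 19. Regions under 1e-05 showed no lean on IV, with 7 on the left, 5 in the centre and 7 on the right. On II they numbered 3, 6 and 6, too few to settle a lean, and the 10 strongest of II numbered 2, 6 and 2.

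Regions of the pair had nearly the same widths as others. The median was 356 bp on II (quartiles 224 and 542.5 bp) and 336.5 bp on IV (245 and 603 bp), against 378 bp on the other chromosomes (247 and 628 bp). Wider than 1 kb were 13 regions of II and 15 of IV, 9.56% of the pair against 11.1% elsewhere. On IV 9 of the 15 lay in the right part, 60.0% (32.3 to 83.7%), although that part held 24.6% of all regions of IV. On II 7 of the 13 lay on the right, 53.8% (25.1 to 80.8%).

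Wider than 2 kb were 5 regions of II and 3 of IV. Besides the widest ones named above they began on II at 6346485 (2504 bp), 8742334 (2228 bp), 11618683 (2180 bp) and 11633752 (2352 bp), the last 2 being neighbours with midpoints 15.2 kb apart. On IV they were those at 14032623 and, with 2046 bp, at 4405254, which lay next to the fourth strongest region. Width did not always go with strength, since the region at 8742334 had a q-value of 0.00166 and ranked 579.

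At the other end, 17 regions of II and 19 of IV were under 100 bp wide, 12.3% of the pair (8.76 to 16.6%) against 9.29% elsewhere (7.49 to 11.4%) and 13.5% on X alone. Regions so narrow are shorter than the DNA fragments of a usual ChIP library, and the smallest, at 11567553 on II and at 3256709 on IV, were 1 and 4 bp wide, with q-values of 0.00668 and 0.00998. None of these narrow regions reached q under 0.001, the smallest value being 0.00139 for a region of 28 bp at 4598929 on II. Of the narrow regions of IV 12 lay on the left, 2 in the centre and 5 on the right, and of those of II 7, 3 and 7.

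**Figure D3:**
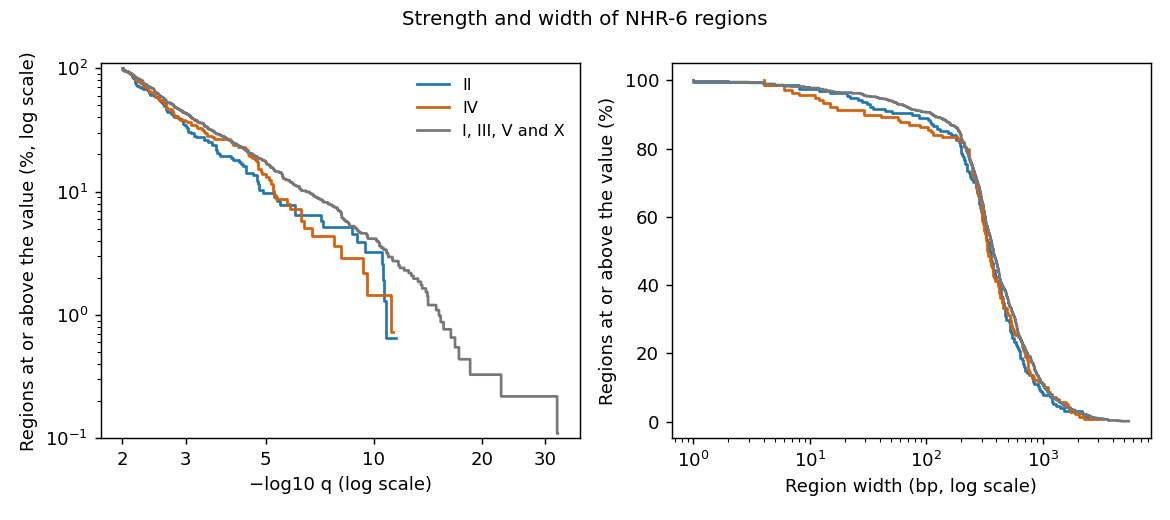
Share of regions (vertical axes, %) at or above a given −log10 q (left panel, both axes log scale) and a given width in bp (right panel, log horizontal axis) for II, IV and the other nuclear chromosomes together. The curves of II and IV end at −log10 q of 11.5 and 11.3 while that of the others runs to 32.5, and the width curves of II and IV lie mostly a little below that of the others.

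Regions on II and IV lay farther apart than those on I, III and V. The median distance from a region's midpoint to the nearest other midpoint was 26.9 kb on II and 37.1 kb on IV, against 13.8 kb on the other 4 chromosomes pooled and 34.3 kb on X. Another midpoint lay within 5 kb of 23 regions on II, 14.8% (9.64 to 21.4%), and of 25 on IV, 18.1% (12.1 to 25.6%), against 31.3% (28.3 to 34.4%) on the others. Fewer neighbours come with a lower density, by which the pair was chosen, and X, of similar density, had 14.8% as well. More than 100 kb from any other region were 17 regions of II, 10.97% (6.52 to 17.0%), and 30 of IV, 21.7% (15.2 to 29.6%), against 6.99% (5.43 to 8.84%) elsewhere. On X alone these were 26 of 155 regions, 16.8% (11.3 to 23.6%), more than on II.

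Of the 604 strongest nuclear regions, 67 lay on II and 65 on IV. Of those on II, 7 had another of these regions within 5 kb, 10.4% (4.30 to 20.3%). Of those on IV none of 65 had, which allows a share of up to 4.62% if 3 counts are taken as the most that a count of 0 allows (the Clopper-Pearson upper limit is 5.52%), against 106 of 472 on the other chromosomes, 22.5% (18.8 to 26.5%). The close pairs of IV in the full list thus each included at least 1 weaker region. Here too fewer neighbours come with a lower density, by which the pair was chosen. The share among the 604 was not computed for X alone.

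Tight groups were small on both chromosomes. No run of 4 or more regions with consecutive midpoints within 10 kb occurred on II or IV, or on X, while I held 9 such runs, III 3 and V 9, with 91 regions in all. With 0 of 293 regions of the pair in such runs, a share of up to 1.02% is allowed for by the same 3 counts (Clopper-Pearson upper limit 1.25%), against 9.95% on the other chromosomes. Fewer runs come with a lower density, by which the pair was chosen, and X, of similar density, had none either. Runs of exactly 3, a size looked at after seeing that there were none of 4, numbered 6 on II and 1 on IV. On I, III, V and X together there were 48 runs of 3 or more, 21 of them of 4 or more. Those chromosomes span 67.2 Mb, against 15.03 Mb for II and 17.3 Mb for IV. The counts therefore do not show II to be poorer in runs of exactly 3. All 6 on II lay right of its middle, where 102 of its 155 regions lay. That side also held 21 of the 23 regions of II with another midpoint within 5 kb.

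The strongest run of 3, from 8561190 to 8573052 on II, held the seventh and the tenth strongest regions of the chromosome and 1 weaker region (q = 0.00117). The run from 10542684 to 10549647 consisted of 3 regions of over 1 kb (1007 to 1413 bp, smallest q = 3.92e-05). The run from 8742334 to 8747658 held one of the widest regions of II and a pair of narrower ones 306 bp apart, the closest regions of that chromosome. Those at 9006857, 11967270 and 14400202 had smallest q-values of 0.00165, 0.00257 and 0.000893. The only run of IV, from 1708457 to 1711434, was made of weak regions of 12 to 419 bp (smallest q = 0.00259).

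Neighbours with edges at most 1 kb apart were found 4 times on II and 5 times on IV. Merging such neighbours left 151 of 155 regions on II and 133 of 138 on IV, against 857 of 915 on I, III, V and X. On IV the closest were those at 17087188 and 17087514, with 285 bp between them. The only such pair with a q-value under 0.001 began at 2219101 on IV (758 bp, q = 1.37e-05), with a weaker region 391 bp to its right (q = 0.00522). On IV 2 of 34 regions of the right part had another midpoint within 5 kb, against 11 of 58 on the left and 12 of 46 in the centre. On II these were 2 of 27 on the left, 12 of 59 in the centre and 9 of 69 on the right, so the densest part of II was not its most clustered.

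**Figure D4:**
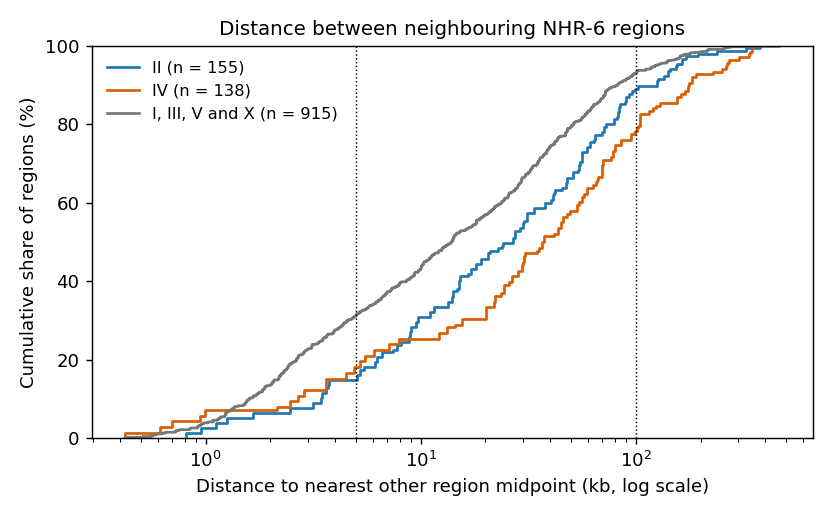
Cumulative share of regions (vertical axis, %) by distance from a region's midpoint to the nearest other midpoint (horizontal axis, kb, log scale) for II, IV and the other nuclear chromosomes together; dotted lines mark 5 and 100 kb. At 5 kb the curves stand at 14.8% for II, 18.1% for IV and 31.3% for the others, and beyond about 10 kb that of IV lies lowest.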

How the data were processed

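ChIP DNA and input DNA were sequenced by the authors from L2 larvae of strain OP90, 2 libraries each. The authors deposited 1 combined region list; per the file headers its coordinates are those of WormBase WS180, and PeakSeq, which calls ChIP against input, stands as the source of each line. Its only measurement, per the file headers, is a q-value for each region, and all q-values were under 0.01. For the aligner, the settings of the caller and the pooling of replicates, the method is not given in the sources used here.

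Widths, midpoints, −log10 q, counts per part, distances and empty stretches were derived from the deposited list in Python 3.11.15 (pandas 2.3.3, numpy 2.4.6, scipy 1.17.1). Only chromosome lengths, counts in the right part and the finding and merging of close pairs were checked on simulated lists. Shares have Clopper-Pearson intervals, densities exact Poisson intervals, and density ratios exact binomial ones. The mitochondrial region was left out. Numbers of protein-coding genes per chromosome came from a RefSeq table of assembly WBcel235, of which no coordinates were used. No sequence of build WS180 was used here.

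The chromosomes, parts and measures were chosen with earlier results of these data known. Named were the 10 strongest regions of each chromosome, runs of 4 or more, the 3 longest empty stretches, the widest and narrowest regions, and the fullest and emptiest segments. Regions named beyond that (runs of 3, regions over 2 kb, close pairs, chromosome ends, crowded bins, neighbours of named regions) were chosen after their values were seen.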

Additional observations from a re-analysis of the deposited data

How the results depend on the processing

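Of 90 values recomputed under another setting, 60 stayed within the interval of the reported value, or within 1.5 times a count. The settings for runs were chosen after seeing the data. No paired analysis was possible because there is only 1 list for both replicates, which also prevented leaving a replicate out.

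The densities of II and IV relative to the other chromosomes stayed within their intervals under all 5 settings, between 0.634 and 0.788 on II and between 0.535 and 0.609 on IV, and the right shares under all but the division into 2 equal parts. Changes by construction were as follows. Among the 604 smallest q-values, densities were 4.46 per Mb on II and 3.76 on IV, and median widths 440, 460 and 526 bp on II, IV and the others. The right of 2 equal parts held 65.8% of II and 41.3% of IV. Under q of 1e-05 the shares were 9.68, 13.8 and 17.5% on II, IV and the others. Within 2 kb, neighbours were found for 6.45, 7.25 and 13.7%, and within 10 kb for 31.0% on II and 43.1% on the others. Without regions under 100 bp the others had a median −log10 q of 2.90, a median width of 412 bp and 47.2% with q under 0.001.

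The share with a neighbour within 5 kb also moved. On IV it was 12.03% after merging within 1 kb, 10.1% without regions under 100 bp and 0% among the 604; on the others it was 21.9% after merging and 22.5% among the 604. It was lower on II and IV than on the others under every setting run. Runs of 4 or more numbered 2, 1 and 34 on II, IV and the others with midpoints within 20 kb, runs of 3 or more 6, 1 and 48, and after merging the others had 9. The cause was not tested. Unknown depth limits every count, since sites with too few reads are not in the list.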
